A study of Mus musculus with 35 samples.

Results

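The bone lineage genes described here are 9 mouse genes of osteoblasts and osteocytes, chosen by name: Runx2, Sp7, Akp2 (now Alpl), Spp1, Ibsp, Dmp1, Phex, Mepe and the osteocalcin gene Bglap1. They account for 12 of 41174 gene probes, and for 9 of 27962 genes. Expression was measured on 35 arrays of 1 colour (Cy3), each hybridized with RNA of a single sample.

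Primary PαS, OP and TTF cells came from adult mice that carry a Nanog-GFP-Puro reporter, and each had 1 array. PαS cells are bone marrow mesenchymal stem cells sorted as CD45- Ter119- PDGFRα+ Sca-1+. OP cells are osteo progenitors sorted as CD45- Ter119- PDGFRα- Sca-1-, and TTF are tail tip fibroblasts, grown out of minced tails. From each source, 5 iPS clones were induced by retroviral Oct3/4, Sox2, Klf4 and c-Myc (4F-clones) and 5 without c-Myc (3F-clones). This made 6 groups of 5 and 30 clones in all, each picked as a GFP+/DsRed- colony and grown on SNL feeder cells. ES #1 (EB-3) and ES #2 (RF 8) are different ES cell lines, with 1 array each. Nothing in the labels says whether clones of a group came from separate animals, so p values do not measure a spread between animals. They measure the spread between clones, and between the 2 ES arrays that were fitted with them.

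Osteoblasts arise from mesenchymal progenitors under the transcription factor Runx2, with Sp7 (osterix) acting after it. They then make tissue-nonspecific alkaline phosphatase, encoded by Akp2, and the matrix proteins osteopontin (Spp1), bone sialoprotein (Ibsp) and osteocalcin (Bglap genes). Osteoblasts buried in matrix become osteocytes, which make Dmp1, Phex and Mepe, regulators of mineralisation and phosphate. Some members are also known outside bone: Akp2 is the enzyme behind the alkaline phosphatase stain of pluripotent cells, and Spp1 is made by macrophages and fibroblasts.

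The positions that follow are those of the array design on mouse build mm7. Spp1, Mepe, Ibsp and Dmp1 are neighbours on chromosome 5, with probes between 103404282 and 103631211, and they belong to the same family of secreted acidic phosphoproteins. The probe of Akp2 lies on chromosome 4 at 137120184-137120243, that of Sp7 on chromosome 15 at 102343418-102343477 and that of Phex on chromosome X at 151990798-151990857. Runx2 has 4 probes on the minus strand of chromosome 17, of which the one farthest 3′, at 42727803-42727862, gave the highest mean and serves as its main probe. The probe farthest 5′, at 42937487-42937546, holds an ATG followed by an open reading frame, which is the known start of the Runx2 protein made from the distal, bone-type promoter. That stretch, at chr17:42937505-42937534, is shown because this probe reads the bone-type transcript, and the start codon is in capitals.
Runx2, probe farthest 5′: ATGgcgtcaaacagcctcttcagcgcagtg

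The Bglap1 probe lies on the minus strand of chromosome 3 at 88497436-88497495. Osteocalcin genes are a cluster of near-identical copies, so the specificity of this probe is uncertain.

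Runx2 is known to bind the letters ACCACA, most often as AACCACA. Both were searched on both strands of the RefSeq promoters of build GRCm38.p6 (250 bases before to 50 after the start of a transcript), where 8 of the 9 genes matched, with 11 promoters. AACCACA, which contains ACCACA, stood in promoters of 3 of these 8 genes, Runx2, Spp1 and Dmp1, beside 6.09% of all 27025 genes, and in 5.27% of all 32851 promoters. ACCACA stood in promoters of 5 of the 8, the former and those of Bglap1 (RefSeq symbol Bglap) and Mepe, beside 18.9% of all genes and 16.8% of all promoters. The windows below are shown because their genes include a regulator and its textbook targets, with the letters in capitals. The letters in capitals start 81 bases upstream of the transcript start for Runx2, 129 for Spp1, 165 for Dmp1 and 132 for Bglap1. A match is a description of letters and does not show binding.
Runx2, chr17:44814690-44814719, minus strand: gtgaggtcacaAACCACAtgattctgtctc
Spp1, chr5:104434971-104435000, plus strand: tttttttttttAACCACAaaaccagaggag
Dmp1, chr5:104202441-104202470, plus strand: agtcatttgagAACCACAagagctttttag
Bglap1, chr3:88384580-88384609, minus strand: cgcaatcacctACCACAgcatcctttgggt

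Each level is a spot intensity after background subtraction, on a log2 scale with the 75th percentile of its array at 0, so that a difference of 1 is 2-fold. Levels of different probes are not comparable, and each gene is compared only with itself. Between 56.6% and 71.1% of probes were well above background per array, and the number of arrays limits the precision. All 30 clones were scanned in 1 session on 8 slides, whereas the sources and ES #1 shared a slide of another session and ES #2 lay on yet another. Clones therefore cannot be told apart from scan session in any comparison with sources or ES cells. Whether a lower level means fewer expressing cells or less RNA per cell cannot be told apart in bulk RNA.

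Labels were checked against defining markers. Nanog and Sox2 were not well above background on any source array, nor in 3 clones made with c-Myc (4F-TTF-iPS #1 and the OP-derived #1 and #3), and 4F-OP-iPS #2 was low for both (-3.30 and -2.04). Pdgfra, whose protein was absent by the gate for OP cells, was 0.98 in PαS, 1.58 in OP and 0.59 in TTF. Ly6a, which encodes Sca-1, was 5.58 in PαS, 3.54 in OP and 3.53 in TTF, so the OP array does not stand below TTF for either sorting marker. Ptprc (CD45) was 4.14 in TTF and not well above background in OP. In PαS cells, gated as CD45-, it was above background, at -9.89 (log2) relative to TTF. Of 10 macrophage and osteoclast markers, 10 were above background in TTF, 6 in PαS and 4 in OP.

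Across all groups, Akp2, Spp1 and Bglap1 were well above background on 35 of 35 arrays, Runx2 and Phex on 34 and Mepe on 33. Sp7 was above background on 7 arrays, Dmp1 on 3 and Ibsp on 1. Of the 30 clones, 3 were above background for Sp7 and none for Dmp1 or Ibsp.

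**Figure D1:**
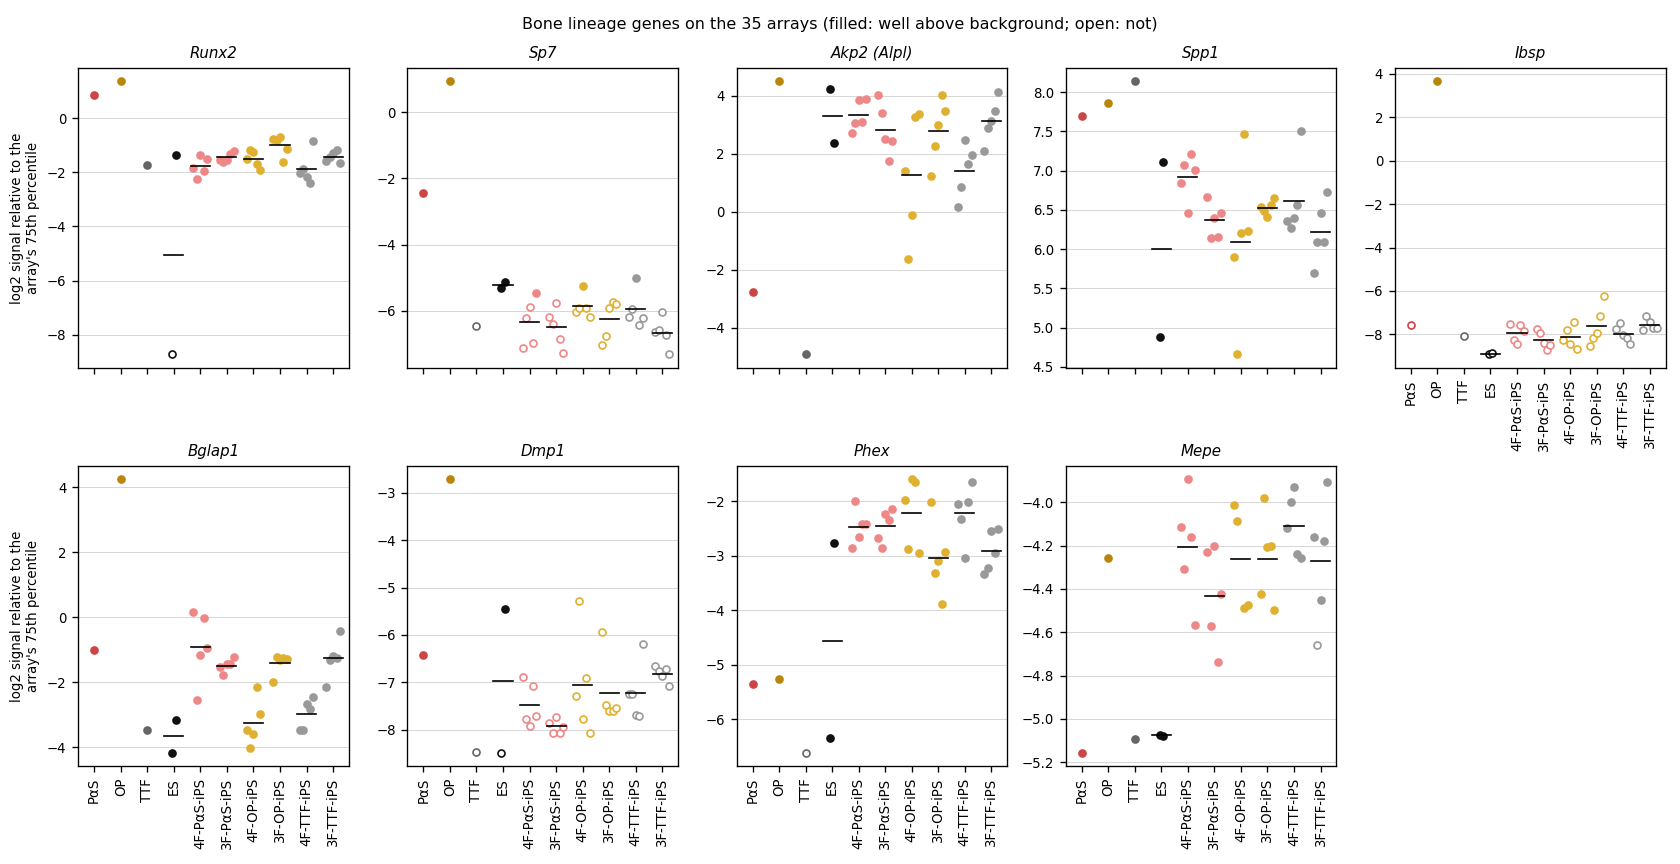
Level of each bone lineage gene (log2 signal relative to the 75th percentile of the array, one panel a gene, y axes differ) on every array, by group; bars are group means, filled points are well above background and open points are not. OP is the highest group for Runx2, Sp7, Akp2, Ibsp, Bglap1 and Dmp1, whereas Phex is higher in the clone groups than in any source.

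The first comparison asked how the bone genes differ between the sources themselves. OP cells carried the strongest bone signal: 5 of 9 members were at least 2-fold higher in OP than in PαS and none was lower. Over all 27699 probes compared, 18.2% were at least 2-fold higher and 12.7% lower in OP, and the median difference was 3.37 (log2) for members and 0.14 for all probes. Against TTF, 7 of 9 members were at least 2-fold higher in OP and none lower, beside 21.5% and 19.0% of all probes, with medians of 5.75 and 0.08. Of these 7, Sp7, Ibsp, Dmp1 and Phex were not well above background in TTF. With only probes above background on both arrays 3 remained. The median of 5.75 is the difference of Dmp1, whose lower bound was 14.9-fold. PαS exceeded TTF at 6 of the 8 members above background on either array and was 2-fold lower at none, beside 19.5% and 22.6% of all probes, with medians of 2.10 and -0.02. Both the 6 and the median of 2.10 use a Dmp1 difference of 2.05 from a TTF value not above background. Its lower bound was 1.15-fold, so Dmp1 is not shown to be 2-fold higher. With normexp background correction PαS exceeded TTF 2-fold at 3 members, with Akp2 at 0.81 (log2), Phex at -0.12 and Dmp1 at -0.23, and with only probes above background on both arrays also at 3. With 1 array a source none of these differences has a replicate check or a test.

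Of the regulators, Runx2 was 0.85 in PαS, 1.37 in OP and -1.73 in TTF by its main probe. OP and PαS thus lay within 1.43-fold of each other, and OP was 8.55-fold and PαS 5.98-fold above TTF. The probe at the bone-type start codon gave a different picture, with -6.97 in PαS, -3.82 in OP and a TTF value not well above background (-8.30). There OP was 8.91-fold above PαS and at least 6.97-fold above TTF. This PαS value lay close to the lowest signal above background on its array (-7.19). An intermediate probe put OP 1.62-fold above PαS, and the probe next to the main one 1.38-fold, so only the probe farthest 5′ exceeded 2-fold between these sources.

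**Figure D2:**
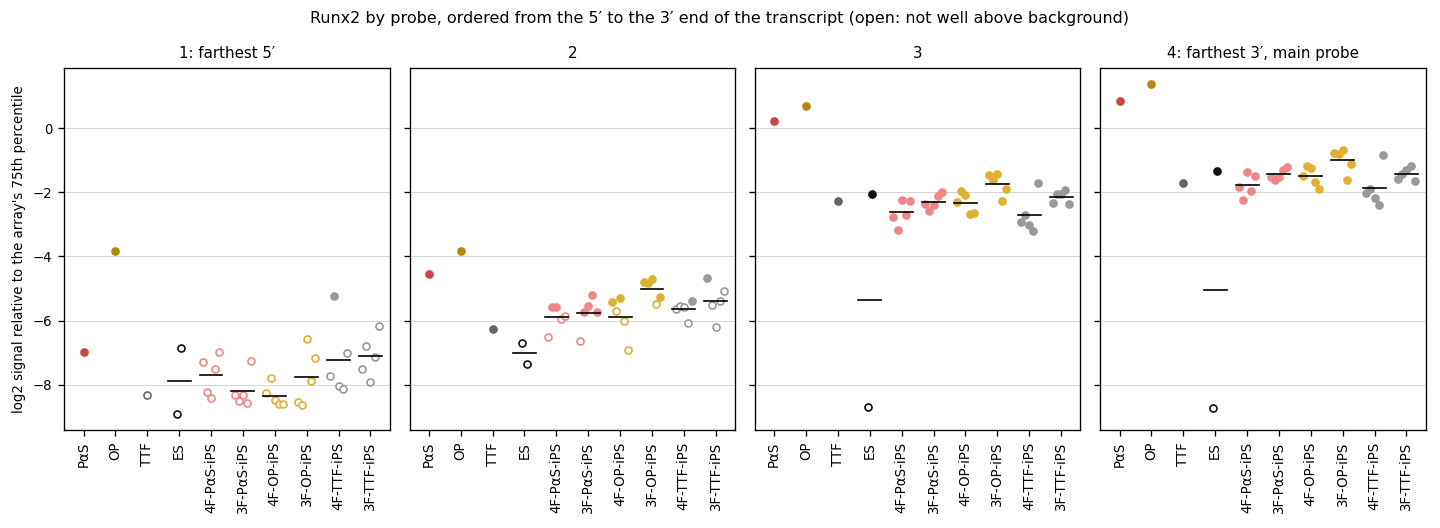
Runx2 by probe, from the 5′ to the 3′ end of the transcript, in every group (log2 signal relative to the 75th percentile of the array; bars are group means, open points not well above background; levels are to be compared within a panel). At the probe farthest 5′, which holds the bone-type start codon, OP lies 8.91-fold above PαS and 1 of 30 clones is above background, whereas at the main probe OP and PαS lie 1.43-fold apart and all 30 clones are above background. The probe farthest 5′ is dim, and PαS (-6.97) lies close to the lowest signal above background on its array (-7.19). There OP is at least 4.54-fold above the mean of its clones, against a median of 5.99-fold at the main probe. Clones not above background therefore do not set the probes apart.

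Sp7, the factor that commits cells to the osteoblast, was -2.43 in PαS, 0.94 in OP and not well above background in TTF (-6.45). OP was 10.3-fold above PαS and at least 168-fold above TTF, and PαS at least 16.3-fold above TTF. Both PαS and OP thus carried Sp7 signal, in unequal amounts.

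Akp2 was -2.77 in PαS, 4.50 in OP and -4.92 in TTF. OP was 155-fold above PαS and 683-fold above TTF, and PαS was 4.42-fold above TTF. On the same slide ES #1 reached 4.23, within 1.20-fold of OP and 129-fold above PαS. This comparison lies within 1 slide and scan session.

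Among matrix genes, Ibsp had the sharpest contrast, with 3.65 in OP and no other array of the 35 well above background. OP was at least 1841-fold above PαS, at least 1238-fold above TTF and at least 1217-fold above ES #1. Bglap1 was -0.99 in PαS, 4.25 in OP and -3.46 in TTF, which put OP 37.7-fold above PαS and 209-fold above TTF. Bglap1 was intermediate in PαS, 5.55-fold above TTF.

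Spp1 did not separate the sources: it was 7.70 in PαS, 7.86 in OP and 8.14 in TTF, all within 1.36-fold of each other and 7.02- to 9.55-fold above ES #1. Beside this value stand the macrophage markers of the TTF array, since macrophages also make osteopontin, and their part in it was not tested.

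The osteocyte genes were less uniform. Dmp1 was -6.42 in PαS, -2.72 in OP and not well above background in TTF, so OP was 13.0-fold above PαS and at least 14.9-fold above TTF. Its PαS value was close to background, and its lower bound over TTF was 1.15-fold. Phex, -5.35 in PαS and -5.26 in OP, lay at least 2.40- and 2.55-fold above TTF, where it was not well above background, but with normexp the Phex difference between PαS and TTF was -0.12 and that between OP and TTF 0.34 (log2). Mepe was -5.16, -4.26 and -5.09, with no pair of sources 2-fold apart.

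Cartilage markers moved with the bone genes across sources, and 6 of 6 were above background in OP against 5 each in PαS and TTF. Their summed level was 7.56 in PαS, 9.57 in OP and 3.33 in TTF, and Col2a1, the collagen of cartilage, was 3.49, 8.47 and -2.25. Their part in the OP result was not tested.

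**Figure D3:**
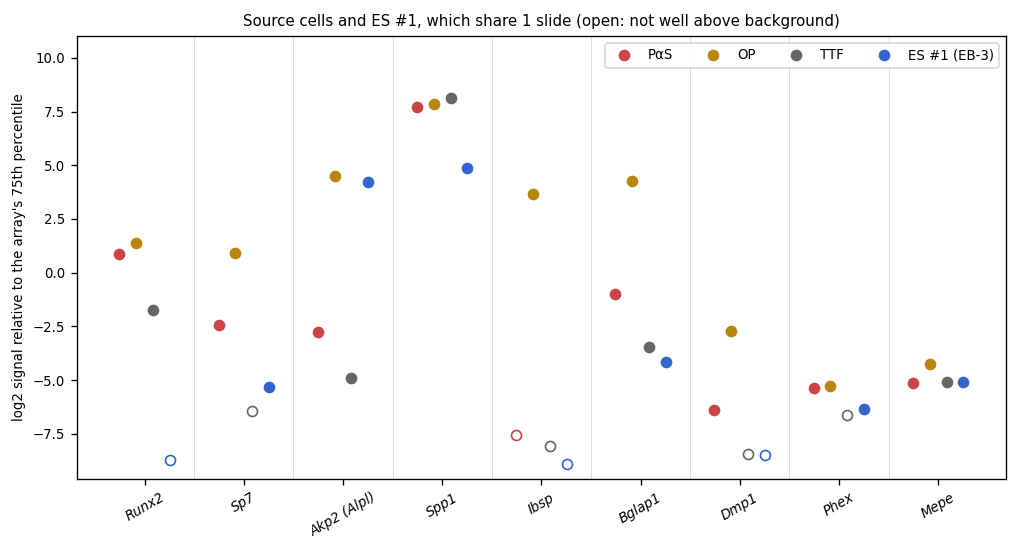
Bone lineage genes in the 3 sources and ES #1, which shared a slide (y axis, log2 signal relative to the 75th percentile of the array; x axis, gene; open points not well above background; compare points within a gene only). OP is above both other sources by 10.3-fold or more for Sp7, Akp2, Ibsp, Dmp1 and Bglap1, and Spp1 lies within 1.36-fold across sources.

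Genes of the same pathway that are not members were read from lists of known bone genes. Of 19 osteoblast regulators, 6 were at least 2-fold higher and 5 lower in OP than in PαS, beside 18.2% and 12.7% of all probes. Against TTF, 14 of 17 were higher and 1 lower in OP, beside 21.5% and 19.0%, and 12 of 19 were higher and 2 lower in PαS, beside 19.5% and 22.6%. Pthr1, the parathyroid hormone receptor, was higher in OP than in PαS by 4.31 (log2) and Hey1, a Notch target, by 3.76, whereas Dlx3, a homeobox factor, was at least 9.45-fold lower. Dlx5, which acts on Runx2 and Sp7, was at least 76.6-fold higher in OP than in TTF. Of 19 matrix and mineralisation genes, 5 were higher and 4 lower in OP than in PαS, and 12 were higher and 1 lower than in TTF. Omd, a proteoglycan of bone matrix, exceeded PαS by 7.92 and Ogn by 3.65, while Ank, a pyrophosphate transporter, stood at -2.33. Of 6 receptors of osteopontin, 3 were lower in OP than in PαS and none higher, including Cd44 at -3.68 and Itgb3 at -3.22. Of 7 osteocyte genes, 1 was higher and 1 lower in OP than in PαS.

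The next comparison asked which bone genes lay below or above the cell of origin in all 10 clones of a source. In OP-iPS clones, 5 of 9 members lay at least 2-fold below OP in every clone, beside 10.9% of all probes, and 1 lay above, beside 7.48%. In PαS-iPS clones 2 of 8 lay below PαS, beside 10.4%, and 2 above, beside 9.69%. In TTF-iPS clones none of 5 lay below TTF, beside 13.6%, and 1 lay above, beside 10.4%. There was no test, since each source had 1 array. Members and probes were counted only where well above background on the source array, which lets in genes high in the source. Phex, not well above background in TTF, was thus not counted there, though it was above background in all 10 TTF-iPS clones. Ibsp and Dmp1 were counted through OP and were above background in no OP-iPS clone.

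Runx2 was 5.21-fold below PαS by the median of 10 PαS-iPS clones, which ran from -2.25 to -1.22 with a median of -1.53. OP-iPS clones ran from -1.90 to -0.69 with a median of -1.21, a median of 5.99-fold below OP. TTF-iPS clones, from -2.41 to -0.83 with a median of -1.61, enclosed the TTF value and lay 1.08-fold above it by the median. At the bone-type start codon OP was at least 4.54-fold above the mean of its clones, none of which was above background. Sp7 was not well above background in 9 of 10 clones of each source. The 1 clone where it was lay at -3.04 (log2) relative to PαS among PαS-iPS clones and at -6.19 relative to OP among OP-iPS clones. Clones of all sources thus had Runx2 signal at the main probe, while most of them had none above background at the probe farthest 5′ or for Sp7. The bound of 4.54-fold at the dim probe farthest 5′ does not exceed the 5.99-fold at the main probe. OP-iPS clones therefore cannot be said to lie further below OP there.

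Ibsp of OP cells was at least 807-fold above the mean of OP-iPS clones and Dmp1 at least 9.41-fold. Bglap1 ran from -4.01 to -1.22 in OP-iPS clones, with a median 79.2-fold below OP. In PαS-iPS clones, by contrast, Bglap1 lay 1.27-fold below PαS by the median. TTF-iPS clones had a median 2.25-fold above TTF. The means of all 6 clone groups lay between OP and TTF for Bglap1, the lowest being 4F-OP-iPS (-3.24), in which 3 of 5 clones lay below TTF.

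Akp2 of clones lay far above PαS and TTF, the sources with low levels, and every clone lay below OP. It was 57.7-fold above PαS by the median of PαS-iPS clones and 147-fold above TTF in TTF-iPS clones, with every clone at least 2-fold above. In OP-iPS clones, which ran from -1.64 to 4.02 with a median of 2.62, it was 3.68-fold below OP by the median, and not every clone was 2-fold below. Phex was 7.59-fold above PαS and 5.12-fold above OP by the median, and the mean of TTF-iPS clones was at least 16.6-fold above TTF. Spp1 lay a median of 2.19-, 2.66- and 3.39-fold below PαS, OP and TTF, without every clone reaching 2-fold. Mepe of clones lay within 1.90-fold of every source by the median.

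Clones were then compared by source, with 4F- and 3F-clones weighted equally. Bglap1 was higher in PαS-iPS than in OP-iPS clones and no other member passed. Of 7 members tested 1 changed (limma, adjusted p under 0.05 and at least 2-fold), beside 1.62% of all 27596 probes tested and 0.823% in this direction, with medians of 0.17 for members and 0.03 for all probes. Dmp1 and Ibsp, above background in no clone, were not tested. Sp7 is 1 of the 7, but it entered the fit only through the ES arrays. It was above background in 1 of 10 clones of each source, so its place among the 7, here and below, is no test between clones.

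Bglap1 was 0.17, -2.54, -1.16, -0.02 and -0.95 in 4F-PαS-iPS #1 to #5, and -1.53, -1.77, -1.44, -1.45 and -1.22 in 3F-PαS-iPS #1 to #5. In 4F-OP-iPS #1 to #5 it was -3.48, -4.01, -3.59, -2.13 and -2.98, and in 3F-OP-iPS #1 to #5 it was -1.98, -1.22, -1.32, -1.26 and -1.29. The sources overlapped, since 3F-OP-iPS clones shared the range of 3F-PαS-iPS clones. The difference was 1.13 ± 0.28 (SE, n = 10 and 10), or 2.20-fold, with a limma adjusted p of 0.0240.

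Some PαS- and OP-iPS clones shared slides. Within slide 5, 2 4F-PαS-iPS clones exceeded 2 4F-OP-iPS clones by 2.69 for Bglap1. Within slide 6 the difference was 0.36 (1 and 3 clones), and within slide 9, which held 3F-clones, 0.27 (2 and 2 clones). PαS-iPS clones were the higher on each of these slides. Over all 4F-clones the means were -0.90 in PαS-iPS and -3.24 in OP-iPS clones, whereas over all 3F-clones they were -1.48 and -1.41, with PαS-iPS the lower. With the slide as a fixed block Bglap1 had a limma adjusted p of 0.0959, and as a random block 0.0541. Without the 3 clones that lacked Nanog and Sox2 it did not pass, with 1.04 (limma adjusted p = 0.152). Nor did it pass with normexp, or when 4F-OP-iPS #3 or 3F-OP-iPS #1 alone was left out (limma adjusted p up to 0.0578).

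Between PαS-iPS and TTF-iPS clones none of the 7 members passed by limma, beside 0.500% of all probes. At an unadjusted limma p under 0.05 there was 1, Bglap1 with 0.92 ± 0.28 (SE, adjusted p = 0.0906). Between OP-iPS and TTF-iPS clones none passed by limma, nor at an unadjusted p under 0.05, beside 0.0217% of all probes. There the difference of Bglap1 was -0.21 ± 0.28 (SE), and that of Runx2 was 0.39 ± 0.47 (SE). The ES arrays enter this SE, since all groups in the fit share 1 estimate of the spread. For Runx2 their SD was 5.22, against 0.17 to 0.61 in the clone groups. Runx2 differences between clones were therefore tested with a wide SE. Akp2 was higher in PαS-iPS than in OP-iPS clones by 1.05 ± 0.51 (SE, limma adjusted p = 0.227), which did not pass.

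Induction with or without c-Myc was compared within each source. Bglap1 was higher in 3F- than in 4F-clones from OP and from TTF, and in neither case did the groups overlap. In OP-iPS clones 1 of 7 members changed, beside 4.50% of all probes and 3.92% in this direction. In TTF-iPS clones 1 of 7 changed, beside 5.76% and 3.96%. In PαS-iPS clones none changed by limma, nor at an unadjusted p under 0.05, beside 0.0181%.

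In OP-iPS clones the group mean of Bglap1 was -1.41 ± 0.32 (SD, n = 5) for 3F and -3.24 ± 0.72 (SD, n = 5) for 4F. The difference was 1.83 ± 0.39 (SE), or 3.54-fold, with a limma adjusted p of 0.00667.

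Among clones of TTF, 4F-clones #1 to #5 had Bglap1 at -3.46, -3.46, -2.67, -2.81 and -2.45, and 3F-clones #1 to #5 at -2.13, -1.30, -1.18, -1.24 and -0.42. Every 3F-clone lay above every 4F-clone, and the difference was 1.71 ± 0.39 (SE), or 3.28-fold, with a limma adjusted p of 0.00723.

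Single markers of cartilage and fat also differed in these comparisons. In OP-iPS clones 1 of 5 cartilage markers tested was higher in 3F-clones, beside the 3.92% of all probes, and in TTF-iPS clones 2 of 5, beside the 3.96%. Matn1, a cartilage matrix protein, was above background in all 3F-clones and in no 4F-clone of either source. It was at least 4.67-fold higher in 3F-OP-iPS and 4.49-fold in 3F-TTF-iPS clones. These folds are a description, since Matn1 stood above background only on the side where it was high. It is the 1 marker called in OP-iPS clones and 1 of the 2 in TTF-iPS clones. The other, Comp, was higher in 3F-TTF-iPS clones by 1.61 (limma adjusted p = 0.0298). The summed level of the 6 cartilage markers ran from -0.10 to 1.30 in 4F-OP-iPS, 0.57 to 2.02 in 3F-OP-iPS, 0.27 to 1.95 in 4F-TTF-iPS and 1.41 to 1.85 in 3F-TTF-iPS clones, with 3 to 4 markers above background in 4F-clones and 5 in 3F-clones. Of 6 fat markers, 3 passed in 3F- against 4F-OP-iPS clones, all higher, and none in 3F- against 4F-TTF-iPS clones. Cebpa, above background in all 10 clones, was higher by 1.63 (limma adjusted p = 0.0202). The other two rest on dim signals, Plin being above background in 5 3F- and 1 4F-clone and Adipoq in 2 of 5 of each. Their summed level ran from 0.44 to 3.11 in 4F-OP-iPS and 1.23 to 2.88 in 3F-OP-iPS clones. Ly6a, which encodes the sorting marker Sca-1, was lower in 3F- than in 4F-TTF-iPS clones, at -3.65 ± 1.07 (SE, limma adjusted p = 0.0299), from -0.67 to 0.36 in 3F-clones and 2.45 to 4.46 in 4F-clones. The summed level of feeder and fibroblast markers ran from 6.65 to 7.26 in 3F-TTF-iPS and 7.11 to 8.53 in 4F-TTF-iPS clones, and from 6.54 to 7.79 in 3F-OP-iPS and 5.98 to 8.12 in 4F-OP-iPS clones. None of the 8 tested passed in either source, with median differences of 0.43 in TTF-iPS and 0.98 in OP-iPS clones, beside 0.04 and 0.02 over all probes. In OP-iPS clones the median of Col3a1 was 3.45 in 3F- and -0.44 in 4F-clones, and that of Lum, a fibroblast proteoglycan, 0.68 and -5.75, with overlapping ranges. The part of these markers in the Bglap1 differences was not tested.

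Akp2 had differences of the same sign that did not pass. In 4F-OP-iPS #1 to #5 it was 1.40, -1.64, -0.12, 3.27 and 3.35, and in 3F-OP-iPS #1 to #5 it was 1.23, 2.25, 2.98, 4.02 and 3.48, a difference of 1.54 ± 0.72 (SE, limma adjusted p = 0.182). Among TTF-iPS clones, 4F-clones #1 to #5 had 0.15, 0.85, 2.47, 1.65 and 1.96, and 3F-clones #1 to #5 had 2.09, 2.90, 3.12, 3.47 and 4.12, a difference of 1.72 ± 0.72 (SE, limma adjusted p = 0.123). The 4F-OP-iPS group spread most, with an SD of 2.17 against 0.52 to 1.09 in the other groups. Runx2, Spp1, Phex and Mepe did not pass in any of these comparisons. Sp7, above background in 0 of 5 3F-clones and 1 of 5 4F-clones of each source, could not be judged.

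**Figure D4:**
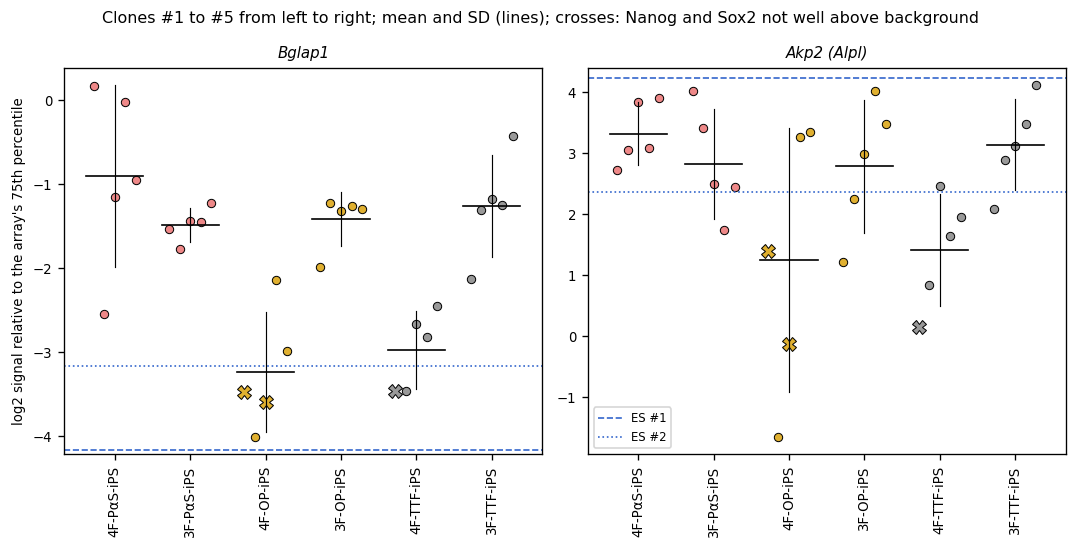
Bglap1 and Akp2 in each clone of the 6 groups (y axis, log2 signal relative to the 75th percentile of the array; horizontal bars, group means; vertical bars, SD, n = 5; blue lines, ES #1 and ES #2; crosses, clones with neither Nanog nor Sox2 well above background). For Bglap1, every 3F-clone from OP or TTF lies above every 4F-clone of its source.

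The difference between 3F- and 4F-clones was itself compared between sources. For Bglap1 it was lower in PαS-iPS than in OP-iPS clones by 2.41 ± 0.55 (log2 -2.41, SE, limma adjusted p = 0.0409), 1 of 7 members beside 0.649% of all probes and 0.467% in this direction. Against TTF-iPS clones it was -2.30 ± 0.55 (SE, limma adjusted p = 0.0495), again 1 of 7 members, beside 0.583% and 0.388%. Between OP- and TTF-iPS clones none of the 7 members passed in limma, nor at an unadjusted p under 0.05, beside 0% of all probes.

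The clones without Nanog and Sox2 were all 4F-clones, of OP and TTF origin, and 3F-clones and 4F-clones of one source shared no slide. Without those 3 clones, Bglap1 in OP-iPS clones had a difference of 1.63 (limma adjusted p = 0.0896). In TTF-iPS clones Bglap1 still passed. Both Bglap1 differences between sources then missed the threshold, at -2.21 (limma adjusted p = 0.183) and -2.17 (limma adjusted p = 0.103). With the slide as a random block no member passed for OP-iPS or TTF-iPS clones (limma adjusted p = 0.0936 and 0.353 for Bglap1). As a fixed block, which rests on 3F-TTF-iPS #1 and 4F-TTF-iPS #5 for TTF-iPS clones, the difference of Bglap1 was -0.25, opposite in sign.

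Over the 30 clones, Akp2 and Bglap1 had a Pearson r of 0.724, given as a description, since the clones share groups and slides. Runx2 had r of 0.17 with Bglap1 and -0.08 with Akp2.

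**Figure D5:**
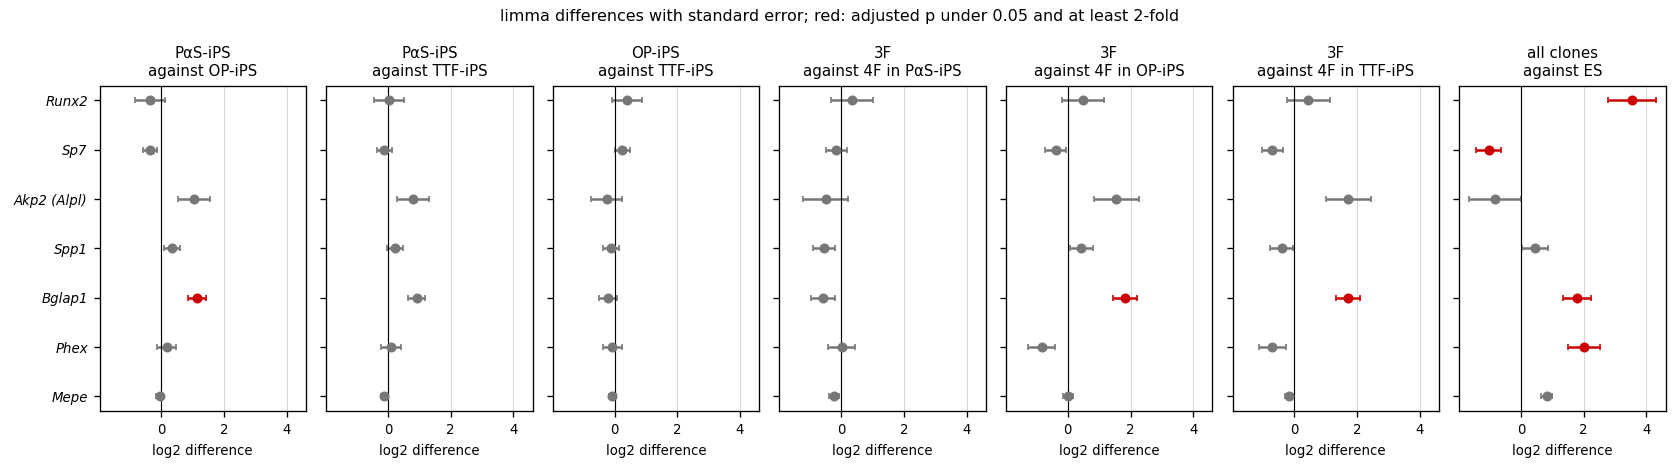
Differences (log2, x axis, same scale in each panel) of the 7 tested bone lineage genes between clone groups and between all clones and ES cells, from limma; bars are standard errors and red marks an adjusted p under 0.05 with at least 2-fold. Bglap1 is marked in PαS- against OP-iPS clones, in 3F- against 4F-clones of OP and TTF and against ES cells, and Runx2 has its largest difference, 3.54, against ES cells. Sp7, marked against ES cells, entered the fit only through the ES arrays, and that mark is not counted.

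All clones were finally compared with ES cells. Of 7 members in the fit, 3 were higher in clones, beside 17.2% higher and 19.0% lower over all probes. The 1 that was lower, Sp7, is not counted for the reason given below, whereas the shares over all probes keep such probes. Bglap1 was -4.16 and -3.16 in ES #1 and ES #2 and ran from -4.01 to 0.17 in clones with a median of -1.49, a difference of 1.78 ± 0.45 (SE, limma adjusted p = 0.00172). Sp7 was -5.31 and -5.14 in ES #1 and ES #2, both well above background, as were 3 of 30 clones. It entered the fit only through the ES arrays, so its lower level in clones is a description with no test.

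Runx2 was not well above background in ES #1 (-8.73) and -1.35 in ES #2, while clones ran from -2.41 to -0.69 with a median of -1.52. The clones surrounded ES #2 and lay far above ES #1. The fitted difference was 3.54 ± 0.77 (SE, limma adjusted p = 0.000433), and without ES #1 it was -0.15 (limma adjusted p = 0.777). With dim signals raised to the floor of each array it was 2.47 (limma adjusted p = 0.000829). Phex was -6.35 and -2.77 in ES #1 and ES #2 and ran from -3.88 to -1.60 in clones with a median of -2.52. Its difference of 2.01 ± 0.50 (SE, limma adjusted p = 0.00146) became 0.22 without ES #1 (limma adjusted p = 0.764). Without ES #1 no member passed, and without ES #2 Spp1 did (1.57, limma adjusted p = 0.0135).

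Feeder and fibroblast markers differed between the ES arrays in the same way. In ES #1 5 of 9 were above background with a summed level of 0.46, and in ES #2 9 of 9 with 7.15, while clones had 7 to 9 with 5.98 to 8.53. Col3a1, a fibroblast collagen, was not well above background in ES #1 (-7.11) and 1.03 in ES #2. Feeder cells are themselves mesenchymal, and the part of their RNA in the Runx2 and Phex signals of the clones was not tested.

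Akp2 was 4.23 and 2.37 in ES #1 and ES #2 and did not pass, with -0.84 ± 0.83 (SE, limma adjusted p = 0.407). Spp1, at 4.88 and 7.12, did not pass either, with 0.46 ± 0.42 (SE, limma adjusted p = 0.373). Mepe was higher by 0.82 ± 0.18 (SE, limma adjusted p = 0.00043), which is under 2-fold, and ran from -4.74 to -3.89 in the 29 clones with a value.

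Pathway genes that are not members showed few differences between clone groups. Of 18 osteoblast regulators tested, 1 was higher in 3F- than in 4F-OP-iPS clones, about the share of all probes that changed there (4.50%, with 3.92% higher). It was Vdr, the vitamin D receptor, with 2.00 ± 0.54 (SE, limma adjusted p = 0.0224). None of them changed between sources, beside 0.0217% to 1.62% of all probes. Of 6 receptors of osteopontin, 1 was higher in PαS-iPS than in TTF-iPS clones, beside 0.500% of all probes and 0.192% in this direction. It was Itgb3, with 2.07 ± 0.52 (SE, limma adjusted p = 0.0434). None of 18 matrix genes, 6 osteocyte genes or the 2 other alkaline phosphatases tested changed between sources or between 3F- and 4F-clones. The shares of all probes that changed in these comparisons ran from 0.0181% to 5.76%. In the comparison of 3F- and 4F-differences between PαS-iPS and OP-iPS clones 1 of 18 matrix genes passed, beside 0.649% of all probes and 0.467% in this direction. It was Slc20a1, a phosphate transporter, with -1.33 ± 0.32 (SE, limma adjusted p = 0.0483). Against ES cells 9 of 18 regulators and 9 of 18 matrix genes were higher, with 0 and 3 lower, beside the 17.2% and 19.0% of all probes. Without ES #1 these became 6 and 5 higher, with 0 and 2 lower, beside 12.5% and 16.6% of all probes.

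Ordered by group mean, Akp2 ran from OP (4.50) through 4F-PαS-iPS (3.32), ES cells (3.30), 3F-TTF-iPS (3.14), 3F-PαS-iPS (2.83) and 3F-OP-iPS (2.79) clones to 4F-TTF-iPS (1.42) and 4F-OP-iPS (1.25) clones, PαS and TTF. Neighbours from 4F-PαS-iPS to 3F-OP-iPS clones lay closer than their SDs, which ran from 0.52 to 1.32. For Runx2 the TTF value (-1.73) stood among the means of the 6 clone groups, of which the lowest was -1.87, and those groups had SDs of 0.17 to 0.61.

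The genes whose pattern over the 35 arrays was most like a member are given as a description, over 25559 probes and with groups and sessions shared. For Runx2 they were Tgfb3 (r = 0.957), Vamp5 (r = 0.952) and Mid2 (r = 0.950). For Akp2 they were Cidea (r = 0.884), Rab11fip4 (r = 0.877) and Casq1 (r = 0.869). For Bglap1 they were Slc1a4 (r = 0.888), Fgfr2 (r = 0.872) and Gm92 (r = 0.871). For Phex they were Klra23 (r = 0.924), Msln (r = 0.901) and 5031410I06Rik (r = 0.896), and for Spp1 Ifit2 (r = 0.865), Ela1 (r = 0.863) and ENSMUST00000050697 (r = 0.840). Mepe, over 34 arrays, had its highest r with AK042403 (0.790).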

How the data were processed

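Total RNA was labelled with Cy3 and hybridized to Agilent mouse arrays of 1 colour. The deposited scanner files hold intensity values, from which the authors' Feature Extraction software (version 10.5.1.1 for the 30 clones, 10.7.3.1 for 4 arrays and 9.5.3.1 for 1) had subtracted the background, with no scaling between arrays. The deposited table of log2 values was made by the authors in GeneSpring GX and centred per probe. It served as an alternative, and its arrays had r of at least 0.99997 with the values computed here over 18968 probes.

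Control spots and outlier flags were left out, spots of a probe averaged, and the 75th percentile of each array was subtracted from its log2 intensities. A probe counted as well above background when most of its spots were flagged so. Where a gene had several probes, that with the highest mean over all arrays was its main probe. The 6 clone groups and ES cells were fitted together with limma 3.58.1 in R 4.3.3 over the 27596 probes that some group had well above background throughout, with Benjamini-Hochberg adjustment over all of them. Changed means adjusted p under 0.05 and at least 2-fold. "At least" folds set each dim array at the higher of its own signal and the lowest signal among probes above background. Sources had 1 array each and were compared without a test. Likewise the clones were set against their source. Python 3.11.15 with numpy 2.4.6 and pandas 2.3.3 served for all else.

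The members and gene lists were chosen with earlier results of these data known. Of 10 genes so chosen, 1 is not reported here and is left out of every count of members. Named genes are the members, the sorting and pluripotency markers, and at most the 3 with the largest difference per list and comparison or the highest r. On simulated data with 200 of 27596 probes changed, the fit recovered 88% of 4-fold changes for PαS- against OP-iPS clones, and 82%, 92% and 85% for 3F- against 4F-clones of PαS, OP and TTF. No arrays were identical (highest r 0.991). Alternatives were normexp (offset 50), quantile normalization, the authors' table, other filters on dim probes, fold minimums, a floor, other probes, slide or clone number as a block, each array left out and probes within 2-fold between ES arrays. Leaving out the 3 clones without Nanog and Sox2 and setting sources against ES #1 were added after seeing the data. Promoters and current symbols are from RefSeq (GRCm38.p6), in which Sp7 has no promoter entry.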

Additional observations from a re-analysis of the deposited data

Results flagged for a closer look

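Values far from the rest of their group were looked for in 35 tests, each of 1 gene in 1 group of 5 clones, of which chance passes about 1 in 20. The 2 found are about as many as chance gives. Bglap1 of 3F-OP-iPS #1 was -1.98, below the other 3F-OP-iPS clones at -1.32 to -1.22. Spp1 of 4F-TTF-iPS #5 was 7.50, above the other 4F-TTF-iPS clones at 6.26 to 6.56.

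The difference of Bglap1 between 3F- and 4F-clones was not the same in all sources by the interaction in limma, at -2.41 (SE 0.55, adjusted p = 0.0409) for PαS-iPS minus OP-iPS clones and -2.30 (SE 0.55, adjusted p = 0.0495) for PαS-iPS minus TTF-iPS clones. Neither passed without the 3 clones that lacked Nanog and Sox2 (adjusted p = 0.183 and 0.103) or with the slide as a random block (adjusted p = 0.0580 and 0.899), and with single arrays left out the first was lost in 18 and the second in 22 of 32 fits. 3F- and 4F-clones of a source shared no slide.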

How the results depend on the processing

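The counts of members that moved were these. For PαS- against OP-iPS clones the 1 call became 0 with normexp, with the slide as a fixed or random block, and without the 3 clones lacking Nanog and Sox2. For 3F- against 4F-OP-iPS clones the 1 became 0 with the slide as a random block or without the 3 clones. For TTF-iPS clones the 1 became 2 with quantile normalization, with Sp7, above background in 1 of these 10 clones, at -1.18, and 0 with either slide block, where a fixed block gave -0.25 for Bglap1. Against ES cells the 4 that passed, with Sp7, which entered the fit only through the ES arrays, became 1 with normexp, and 2 with only probes above background on all arrays or within 2-fold between ES arrays. The interaction call of PαS- and OP-iPS clones became 0 with quantile normalization, no filter, either slide block or without the 3 clones, and that of PαS- and TTF-iPS clones became 0 with the random block or without the 3 clones. Of the sources, OP against TTF went from 7 to 3 with only probes above background, and PαS against TTF from 6 to 3 with that filter and with normexp, where Dmp1 was -0.23 and Phex -0.12. Members below PαS in all clones went from 2 to 1 with normexp or that filter and to 4 with quantile normalization, and below OP from 5 to 2 with that filter. The cause was not tested where the alternative did not itself drop genes or clones.

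With each array left out in turn, the counts ran from 0 to 1 for PαS- against OP-iPS clones (0 without 4F-OP-iPS #3 or 3F-OP-iPS #1) and for PαS- against TTF-iPS clones (1 without 4F-PαS-iPS #2). For 3F- against 4F-clones of OP and of TTF they were 1 in all 32 fits. They ran from 0 to 4 against ES cells (0 without ES #1, where Runx2 was -0.15, against 7.23 without ES #2, a difference from ES #1 alone, where Runx2 was not well above background), and from 0 to 1 for both interactions (0 in 18 and 22 of 32 fits). Below TTF the count was 0 to 1 (1 without 4F-TTF-iPS #5) and below OP 5 to 6.

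Clone numbers did not pair the clones: 16 of 75 same-numbered pairs had r over 0.1 and 6 of 30 clones were most like one of their own number. With the clone number as a replicate block no count moved, and Bglap1 in PαS- against OP-iPS clones had an adjusted p of 0.0127. Of 2555 values that passed under neither setting, 91 changed sign.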
